A study of Drosophila melanogaster with 46 samples.

Results

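The nuclear genes of oxidative phosphorylation were followed in eye discs of Drosophila melanogaster in which Pc or the ph genes, subunits of Polycomb repressive complex 1 (PRC1), had been mutated or targeted by RNA interference (RNAi). Members were taken by name: every gene of the 2 deposited expression tables whose symbol begins with ND-, UQCR-, COX and a digit, or ATPsyn. This gave 70 of the 12884 genes listed in either table. Of these, 56 are subunit genes, with 33 of complex I, 5 of complex III, 7 of complex IV and 11 of complex V. The other 14 are paralogues whose names end in L, L1 or L2, called L paralogues below, and 5 of them had a row in the Pc mutant table only. The rule used no measured value. Subunits with names of another form, such as blw, RFeSP and Cyt-c1, fall outside it and are given as lists further on.

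Oxidative phosphorylation takes place at the inner membrane of the mitochondrion. Complex I takes electrons from NADH, complex II takes them from succinate, complex III passes them to cytochrome c and complex IV passes them on to oxygen, and the proton gradient built on the way drives the ATP synthase, complex V. Complexes I, III, IV and V are assembled from subunits of both genomes, while the genes described here are those of the nucleus. L paralogues arose by duplication of subunit genes and in Drosophila are mostly known for expression in testis. PRC1 is a chromatin complex known for silencing developmental genes, and Pc, Psc and the ph gene pair encode subunits of it. Su(z)12 is a subunit of the second Polycomb complex, PRC2.

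The series holds 46 samples, of which the expression tables and peak lists of eye discs were used. All came from the third instar wandering stage, and the eye disc, which gives rise to the adult eye and antenna, is here a bulk sample. The Pc mutant group, Mutant_PcXT109_FRT2A (strain PCxt109 mutant), had 2 replicates of about 150 discs, and its control is not named in the labels used here, nor is it stated whether all cells of the discs were mutant. The ph RNAi group (BL 64095 x VDRC50028) and the white RNAi group (BL 64095 x BL33623) had 4 replicates of about 150 discs each, and the labels do not say what drives the RNAi or in which cells. RNA was selected for poly-A. ChIP of PSC and of Su(z)12 was made in discs of the strain W1118 Oregon-R, with 2 replicates of about 500 discs each. The labels do not say whether replicates are separate crosses or dissections, so p-values measure only the spread between these samples, which may be technical. The tables give for each gene a mean normalized count over all libraries of the comparison, a log2 fold change with its standard error and an adjusted p-value of DESeq2, and no value per library or per group, so levels in single libraries and their depth are not given here.

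In the authors' deposited table for the Pc mutant, Pc had a log2 fold change of -1.64 ± 0.41 (SE, adjusted p = 0.00134). In that for ph RNAi, the authors' deposited table gave -0.80 ± 0.04 for ph-p (adjusted p = 1.11e-88) and -0.66 ± 0.05 for ph-d (adjusted p = 6.89e-42). All 10 eye disc markers were detected, with mean counts from 1155 (ato, Pc mutant table) to 8306 (dac, ph RNAi table) in the authors' deposited tables. They moved with the conditions: 10 of 10 were called lower in the Pc mutant (median log2 fold change -1.04), and 9 of 10 lower and 1 higher in ph RNAi (median -2.72), in the authors' deposited tables. Among markers of other tissues, 13 of 14 muscle, 6 of 8 fat body and 1 of 6 haemocyte markers were called lower in the Pc mutant, and 8 of 14 muscle, 0 of 8 fat body and 6 of 6 haemocyte markers in ph RNAi, with no marker of these lists called higher. None of these marker lists had a gene at 0 in the Pc mutant table, the lowest mean count being 24.5 for Act88F in the authors' deposited table, and none in the ph RNAi table (lowest 2.08, again Act88F). The part of these shifts in the results below was not tested. In bulk discs fewer cells of a type and less RNA per cell cannot be told apart.

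The 2 conditions gave unlike responses of the subunit genes. In the Pc mutant, none of the 55 subunits with an adjusted p-value was called at an adjusted p under 0.05, against 9.88% of all 11297 tested genes. In ph RNAi, 52 of the 56 subunits (92.9%) were called higher and 0 lower, against 31.1% of 11009 tested genes called higher and 34.9% called lower, on the authors' scaling, while relative to the median of the cytoplasmic ribosomal protein genes 11 were called higher and 12 lower. The increases were mostly small on the authors' scaling. They varied between subunits, from 0.14 (ND-B16.6) to 0.88 (ND-ACP) among those called. The median log2 fold change of the subunits was -0.02 in the Pc mutant and 0.37 in ph RNAi (1.29-fold), with standard deviations between subunits of 0.06 and 0.23, in the authors' deposited tables.

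In the Pc mutant the subunits lay close to 0 in every complex. The log2 fold changes of the 55 with an adjusted p-value ran from -0.11 (ND-51) to 0.15 (ND-MWFE) in the authors' deposited table. Of all 56, 22 were above 0, among them the thinly covered ND-B8 (0.30 ± 1.49). The median was -0.02 for complex I, -0.05 for complex III, -0.02 for complex IV and -0.03 for complex V. Over all tested genes, 3.64% were called higher and 6.24% lower. Among those whose mean count reached 500, 53 subunits included, the shares were 4.22% higher and 7.15% lower, 11.4% in all. An unadjusted p under 0.05 was found for 1 of the 55 tested subunits, no more than that threshold would pass by chance among so many. This was ND-51, which encodes the NADH-binding core subunit of complex I, at -0.11 ± 0.05 (SE) in the authors' deposited table (adjusted p = 0.118). It was called lower, at -0.19 (adjusted p = 0.00118), when fold changes were centred on the cytoplasmic ribosomal protein genes, and no other subunit was called under that scaling. The upper bound of the 95% interval was below 0.25 for 38 of the 55 subunits on the authors' scaling. The ph RNAi median on that scaling, 0.37, lay above the interval of most subunits. Relative to the cytoplasmic ribosomal protein genes the ph RNAi median was -0.02, so this comparison holds on the authors' scaling only. The widest interval was that of ND-AGGG, an accessory subunit of complex I, which ran from -0.72 to 0.60. The mean count of ND-B8 was 1.49 in the authors' deposited table for the Pc mutant, and it had no adjusted p-value.

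In ph RNAi, complex I rose in 29 of its 33 subunits on the authors' scaling, with a median of 0.36, and relative to the cytoplasmic ribosomal protein genes 7 were called higher and 9 lower. All 7 core subunits, which form the conserved catalytic part, were called higher, from 0.22 (ND-51) to 0.56 (ND-24) in the authors' deposited table. In the authors' deposited table ND-24, an iron-sulphur subunit of the NADH-binding module, rose by 0.56 ± 0.05 (SE, adjusted p = 1.16e-34), and ND-75, the largest iron-sulphur subunit, by 0.39 ± 0.03 (adjusted p = 2.40e-39). ND-49, a core subunit beside the ubiquinone site, had in the authors' deposited table the highest mean count of the complex (5308) and an increase of 0.23 ± 0.05 (adjusted p = 1.54e-05). The core subunits as a whole (median 0.39) and the 26 others (median 0.35) overlapped throughout.

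The accessory subunits of complex I spread more widely than the core. ND-ACP, the mitochondrial acyl carrier protein, which also serves lipoic acid and fatty acid synthesis, had the largest increase of all 56 subunits, 0.88 ± 0.05 (SE, 1.84-fold) in the authors' deposited table (adjusted p = 1.09e-73). Next among the accessory subunits came ND-B14.5B at 0.68 ± 0.06 (adjusted p = 2.73e-33), ND-13B at 0.60 ± 0.05 (adjusted p = 5.04e-28), ND-B14.7 at 0.59 ± 0.04 (adjusted p = 7.99e-43) and ND-SGDH at 0.55 ± 0.05 (adjusted p = 8.69e-28) in the authors' deposited table. These 5 stayed higher relative to the cytoplasmic ribosomal protein genes. At the low end, ND-42 (0.17), ND-B14 (0.17) and ND-B16.6 (0.14) were still called higher in the authors' deposited table, although relative to the ribosomal protein genes each was called lower. The 4 subunits not called were all accessory ones of complex I. ND-B18 had 0.09 ± 0.04 (adjusted p = 0.0520) and ND-AGGG 0.16 ± 0.08 (adjusted p = 0.0812) in the authors' deposited table. ND-MWFE and ND-B8 were thinly covered, with mean counts of 22.2 and 1.10 in the authors' deposited table for ph RNAi, and had 0.16 ± 0.33 and -0.91 ± 1.54. All 52 called subunits lay among the 54 whose mean count reached 500. Of all genes tested at such a count 47.5% were called higher, 34.4% lower and 81.9% either way, against 66% either way over all tested genes.

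In complex III, all 5 subunits were called higher in ph RNAi on the authors' scaling, with a median of 0.44, and relative to the ribosomal protein genes 1 was called higher and 1 lower. UQCR-Q, a small accessory subunit, had an increase of 0.61 ± 0.06 (SE) in the authors' deposited table (adjusted p = 1.48e-22). The paired core proteins UQCR-C1 and UQCR-C2 had mean counts of 8408 and 4396 in the authors' deposited table for ph RNAi. In the same authors' deposited table UQCR-C1 rose by 0.44 ± 0.03 (adjusted p = 1.18e-44) and UQCR-C2 by 0.28 ± 0.04 (adjusted p = 3.84e-10). The difference between UQCR-C1 and UQCR-C2 exceeded their standard errors, and UQCR-C2 was the one called lower relative to the ribosomal protein genes. UQCR-11 had the smallest change of the complex, 0.21 ± 0.08 (adjusted p = 0.0201) in the authors' deposited table.

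Complex IV had the highest median of the 4 complexes in ph RNAi, 0.49, with 7 of 7 subunits called higher on the authors' scaling, and relative to the ribosomal protein genes 3 were called higher and 0 lower. COX5A, a subunit on the matrix side, rose by 0.70 ± 0.04 (SE, 1.62-fold) in the authors' deposited table (adjusted p = 8.16e-66). COX8 (0.58 ± 0.05) and COX5B (0.55 ± 0.06) followed in the authors' deposited table, and these 3 were the ones called higher on the ribosomal scale. COX4 (0.34 ± 0.04) and COX7A (0.30 ± 0.05) came further down the order in the authors' deposited table, and lay at -0.04 and -0.09, uncalled, when centred on the ribosomal protein genes. The ranges of the complexes overlapped, from 0.29 to 0.70 in complex IV and from 0.21 to 0.61 in complex III, and no test between complexes was made.

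Complex V was the most even of the complexes. All 11 subunits were called higher in ph RNAi on the authors' scaling, from 0.23 (ATPsynF) to 0.47 (ATPsynG) in the authors' deposited table, and relative to the ribosomal protein genes 0 were called higher and 2 lower. Its standard deviation between subunits was 0.07, against 0.16 in complex IV, 0.17 in complex III and 0.28 in complex I, where the last includes ND-B8. The subunits of the F1 head and central stalk (median 0.37, 3 genes) and those of the membrane part and outer stalk (median 0.35, 8 genes) did not stand apart. ATPsyndelta, of the central stalk, rose by 0.42 ± 0.03 (SE) in the authors' deposited table (adjusted p = 2.19e-39). ATPsynC, which forms the rotor ring, and ATPsynbeta, the catalytic subunit, had the highest mean counts of all members, 43286 and 32028, in the authors' deposited table for ph RNAi. There the authors' deposited table gave an increase of 0.37 ± 0.05 for ATPsynC (adjusted p = 7.17e-13) and of 0.31 ± 0.04 for ATPsynbeta (adjusted p = 2.72e-14).

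**Figure D1:**
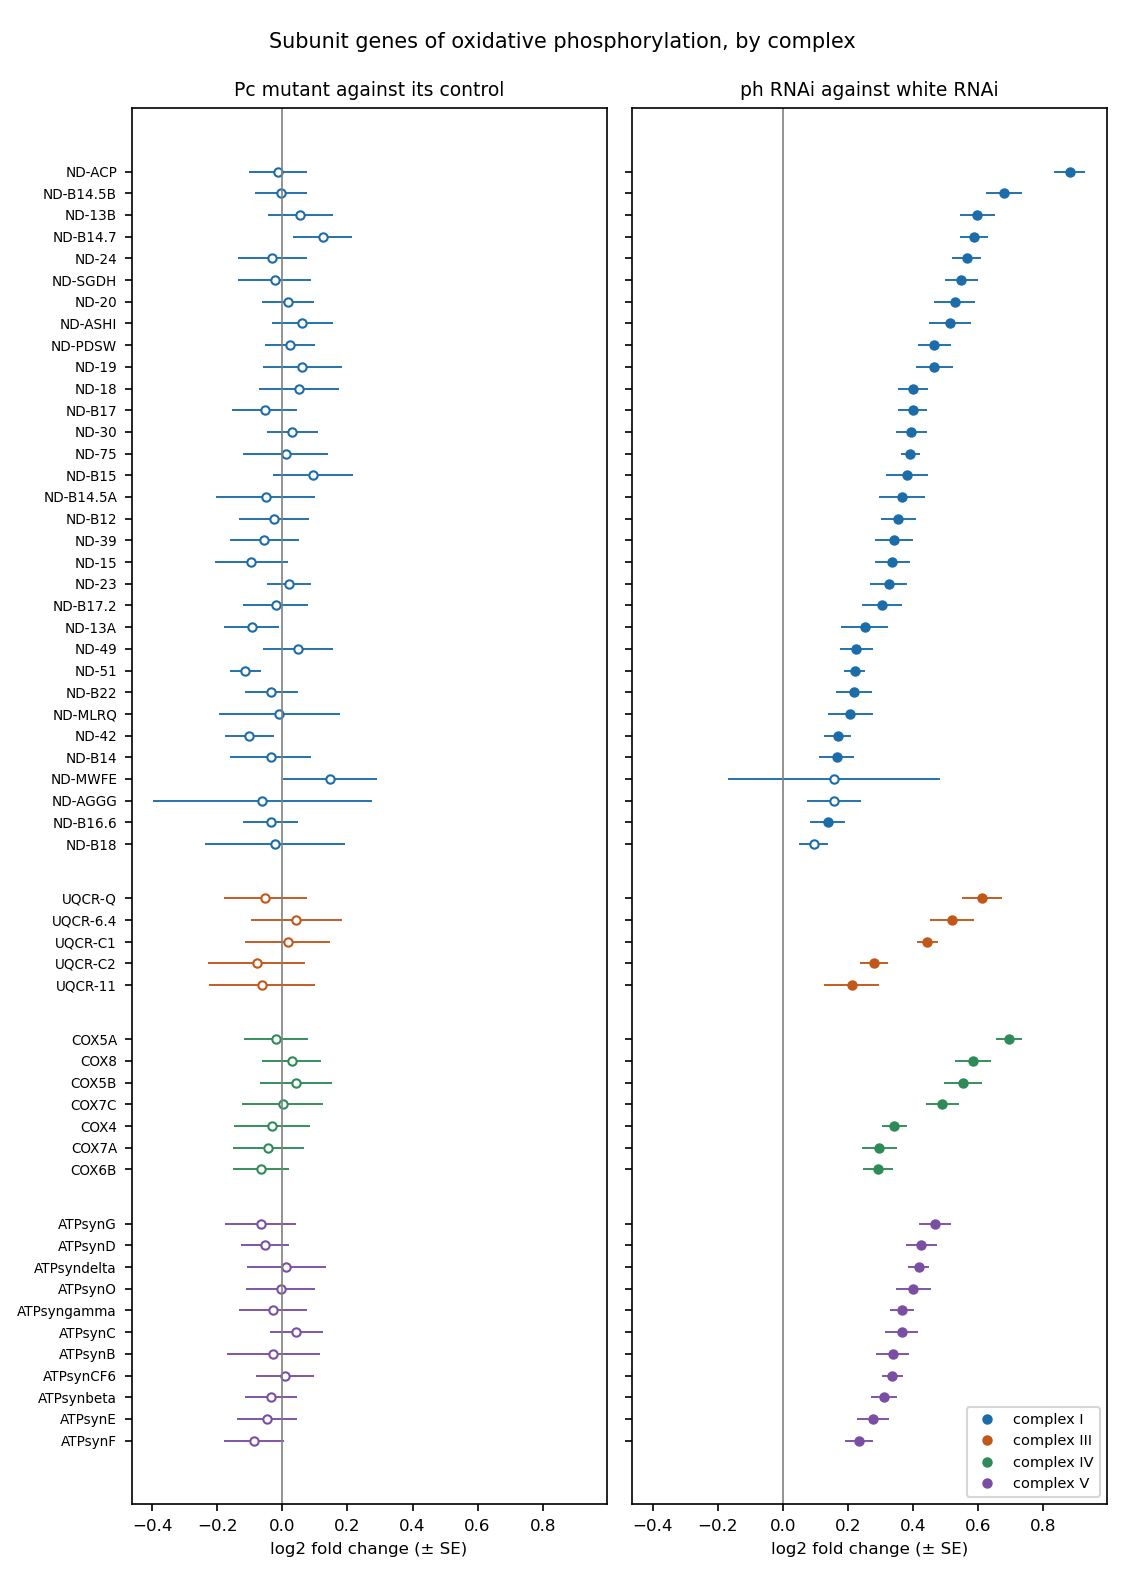
Log2 fold change of each subunit gene in the Pc mutant against its control (left) and in ph RNAi against white RNAi (right), from the authors' deposited tables, by complex and sorted by the ph RNAi value. Bars are ± 1 SE, filled points have an adjusted p under 0.05 and open points do not; ND-B8, with a mean count near 1, is left out. All Pc mutant points are open and lie between -0.11 and 0.15, while 52 points of ph RNAi are filled and above 0 on the authors' scaling, of which 11 stay called higher and 12 subunits are called lower relative to the cytoplasmic ribosomal protein genes.

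The difference between the conditions was tested for each gene as the Pc mutant value minus the ph RNAi value, by a z test that used the sum of both squared standard errors, with p-values adjusted (Benjamini-Hochberg) across the 10588 genes testable in both. It assumes that the 2 comparisons share no library, which the labels do not settle for the unnamed control. The Pc mutant value was called below the ph RNAi value for 46 of 55 subunits and above it for 0. Of all genes, 22.4% were called below and 49.8% in either direction. The share among genes with mean counts like those of the subunits was not computed. The median difference of the subunits was -0.38. By complex, the subunits called below were 24 of 32 for complex I, 4 of 5 for complex III, 7 of 7 for complex IV and 11 of 11 for complex V. ND-ACP had -0.01 in the Pc mutant and 0.88 in ph RNAi, a difference of -0.90 ± 0.10 (SE, adjusted p = 1.71e-17). COX5A differed by -0.72 ± 0.11 (adjusted p = 1.18e-10) and ND-B14.5B by -0.69 ± 0.10 (adjusted p = 2.00e-11). Among the 9 subunits not called was ND-49, at -0.18 ± 0.12 (adjusted p = 0.205), although its mean count was high. With both comparisons centred on the cytoplasmic ribosomal protein genes, 6 subunits remained called, namely ND-ACP, COX5A, ND-24, ND-B14.5B, UQCR-Q and COX8, and the median difference was -0.07.

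The direction of the ph RNAi values depended on the scale. The median log2 fold change was 0.02 in the Pc mutant and -0.06 in ph RNAi over all tested genes, and 0.08 and 0.39 over the cytoplasmic ribosomal protein genes, whose mRNAs are among the most abundant in the disc. Of the 88 ribosomal protein genes tested in each comparison, 1 was called higher and 0 lower in the Pc mutant, and 83 higher and 3 lower in ph RNAi. The subunits of oxidative phosphorylation and the cytoplasmic ribosomal protein genes thus had nearly the same median in ph RNAi, 0.37 and 0.39. Relative to that ribosomal median the subunit median was -0.02. Relative to all tested genes it was 0.43, and relative to genes whose mean count reached 500 (median 0.09) it was 0.28.

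L paralogues were barely detected in either comparison. Their mean counts ran from 0.176 to 98.4 in the Pc mutant table and from 0.259 to 70.5 in the ph RNAi table, against medians of 2423 and 2400 for the subunits. Only ATPsynepsilonL, a paralogue of the epsilon subunit of the ATP synthase, exceeded 10 in either table. In the Pc mutant its log2 fold change was 0.12 ± 0.26 (SE, adjusted p = 0.911), and in ph RNAi it was -0.38 ± 0.19 (adjusted p = 0.0665), in the authors' deposited tables. In the Pc mutant 0 of the 7 L paralogues with an adjusted p-value were called, against 9.88% of all tested genes. In ph RNAi 0 of 8 were, against 66%. With so few genes, 0 called in the Pc mutant is near that share. Apart from ATPsynepsilonL, the tested L paralogues had standard errors of at least 0.63 in the Pc mutant and at least 0.83 in ph RNAi, so that a change of 0.37, the subunit median in ph RNAi, was not detectable in them.

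All 14 L paralogues had a value above 0 in the Pc mutant, against 7236 of all 12785 genes with a row. In the authors' deposited table these were, with standard errors (over 1 also for ND-51L1 and over 6 for ATPsynGL), 0.03 ± 0.63 for COX7AL, 0.67 ± 1.14 for ATPsynbetaL, 0.77 ± 1.15 for UQCR-11L, 0.77 for ND-51L1, 1.03 ± 1.66 for ND-51L2 and 1.32 ± 0.89 for COX4L. ND-49L had 4.67 ± 2.22 at a mean count of 1.57 (unadjusted p = 0.0350, no adjusted p-value) in the authors' deposited table. The others without an adjusted p-value were ND-20L (1.56 ± 1.85), ND-24L (1.01 ± 6.87), ND-B14.5AL (2.55 ± 6.99), ATPsynGL (2.87), COX6AL (3.68 ± 6.95) and ATPsynCF6L (5.22 ± 6.93) in the authors' deposited table. Each of these intervals but that of ND-49L includes 0. Fitted fold changes at such counts depend on single reads and give no bound. The share of values above 0 among genes of such low counts was not computed.

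In ph RNAi 4 of the 9 L paralogues with a row were above 0, against 5436 of all 11771 genes with a row. ND-51L1 had -2.03 ± 1.01 (adjusted p = 0.0654) at a mean count of 3.26 in the authors' deposited table. It and ATPsynepsilonL had an unadjusted p under 0.05, and both were called lower when centred on the cytoplasmic ribosomal protein genes. UQCR-11L (1.27 ± 0.90), COX4L (0.43 ± 0.86), COX7AL (-0.27 ± 0.83), ND-20L (-0.44 ± 1.12), ATPsynbetaL (-0.91 ± 1.94), ND-51L2 (0.07 ± 1.73) and ND-49L (1.55 ± 3.53) were not called in the authors' deposited table. None of the 7 L paralogues tested for the difference between the conditions was called, against 49.8% of all genes, and 0 had an unadjusted p under 0.05.

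Testis and male germline markers were also low in count, and most had a value above 0 in the Pc mutant. Of the 20 markers with a row, 18 had a value above 0, against 7236 of all 12785 genes. Of the 14 tested 3 were called higher and 1 lower, against 3.64% and 6.24% of all tested genes. The 3 were betaTub85D (4.17 ± 1.05), loopin-1 (6.51 ± 1.97) and S-Lap1 (4.33 ± 1.19), and the 1 lower was vas (-1.68 ± 0.34), in the authors' deposited table. In ph RNAi 5 of 15 were above 0, against 5436 of all 11771 genes. Of 13 tested there 2 were called higher (mia, topi) and 2 lower (S-Lap1, vas), against 31.1% and 34.9% of all tested genes. The median mean count of these markers was 4.46 in the Pc mutant table and 2.92 in the ph RNAi table, with a highest value of 397 and 535, both for mia. Levels in each group are not given by the tables, and the part of these transcripts in the values of the L paralogues was not tested.

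**Figure D2:**
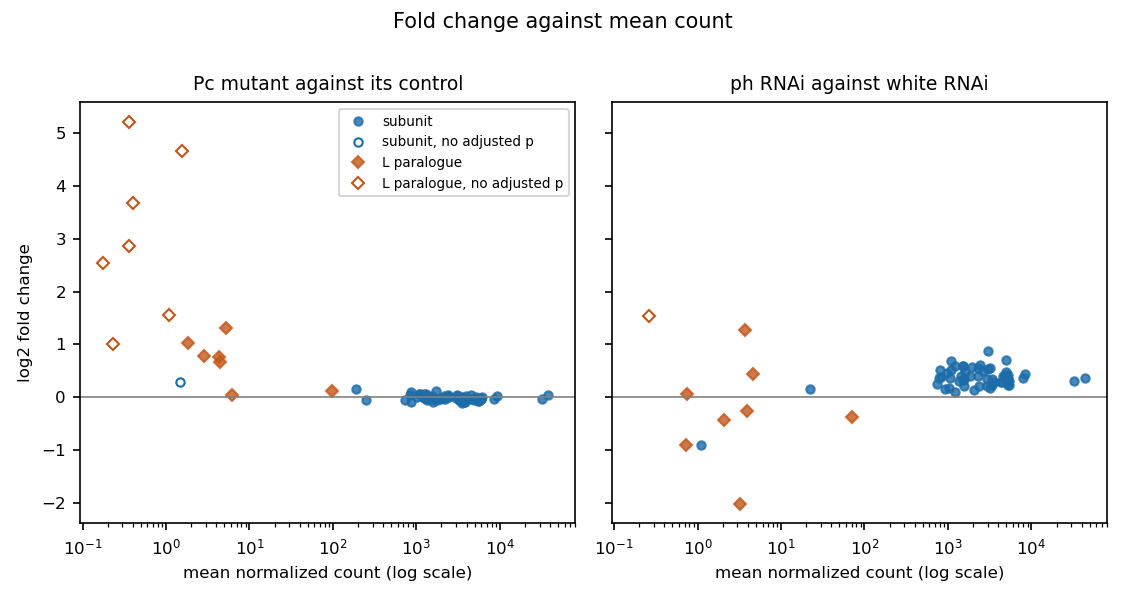
Log2 fold change against mean normalized count (log scale) of the 70 members in the Pc mutant against its control (left) and in ph RNAi against white RNAi (right), from the authors' deposited tables. Circles are subunits and diamonds are L paralogues, open where the table gives no adjusted p. L paralogues lie at mean counts of at most 98.4 and spread up to 5.22, while nearly all subunits lie above 500, near 0 in the Pc mutant and, on the authors' scaling, around 0.37 in ph RNAi.

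Lists of subunits outside the naming rule had medians near those of the member subunits. They also hold paralogues with names ending in L, namely Cyt-c1L in complex III and SdhAL and SdhBL in complex II. ATP synthase alpha, encoded by blw, had 0.00 ± 0.11 in the Pc mutant and 0.23 ± 0.04 in ph RNAi (adjusted p = 4.01e-08) in the authors' deposited tables. Of 7 other subunit genes of complexes III to V, 0 were called in the Pc mutant and 6 were called higher in ph RNAi, with medians of 0.00 and 0.38. Values of these 7, Cyt-c1L included, ran from -0.03 to 1.44 in the Pc mutant and from -0.19 to 0.72 in ph RNAi. Relative to the ribosomal protein genes, blw was called lower in ph RNAi (-0.16), and of the 7 others 1 was called higher and 1 lower, with a median of -0.01. Cyt-c1, the haem subunit of complex III, had 0.11 ± 0.07 in the Pc mutant and 0.72 ± 0.04 in ph RNAi (adjusted p = 1.18e-86), in the authors' deposited tables. In complex II, 0 of 5 tested genes were called in the Pc mutant, and in ph RNAi 4 were called higher and 1 lower, with medians of 0.01 and 0.33. Relative to the ribosomal protein genes, 2 were called higher and 1 lower in ph RNAi, with a median of -0.05. SdhA, the flavoprotein, rose by 0.55 ± 0.03 and SdhB, the iron-sulphur subunit, by 0.54 ± 0.04 in ph RNAi, and the gene called lower was the low-count paralogue SdhBL (-1.86 ± 0.68), in the authors' deposited table. At an unadjusted p under 0.05 in the Pc mutant, the counts were 0 for blw, 1 of the 7 (Cyt-c1L) and 1 of the 5 (SdhBL).

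Cyt-c-p, the cytochrome c that carries electrons between complexes III and IV, was called higher in both conditions on the authors' scaling. It had 0.35 ± 0.12 (SE, adjusted p = 0.0439) in the Pc mutant and 1.36 ± 0.05 (adjusted p = 4.36e-174) in ph RNAi, in the authors' deposited tables. Relative to the ribosomal protein genes it was called higher in ph RNAi (0.97) and not in the Pc mutant (0.27, adjusted p = 0.152). Its value in ph RNAi exceeded that of every subunit. Assembly factors gave 0 called of 10 in the Pc mutant and 8 higher of 10 in ph RNAi, with medians of 0.00 and 0.39. Among them Cox10, a haem synthesis enzyme that serves complex IV, rose by 0.54 ± 0.05 in ph RNAi in the authors' deposited table. Relative to the ribosomal protein genes, 2 assembly factors were called higher and 3 lower in ph RNAi. No assembly factor had an unadjusted p under 0.05 in the Pc mutant (0 of 10).

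Genes for the upkeep and transcription of the mitochondrial genome had a median in ph RNAi above that of the subunits, with overlapping ranges and no test between them. None of the 10 tested was called in the Pc mutant (median 0.14), and all 10 were called higher in ph RNAi (0.37 to 1.30, median 0.77), 7 of them also relative to the ribosomal protein genes. TFAM, which packages mitochondrial DNA, had 0.15 ± 0.08 in the Pc mutant and 0.91 ± 0.04 in ph RNAi, in the authors' deposited tables. The DNA polymerase gene tam had 0.13 ± 0.11 in the Pc mutant and 1.30 ± 0.08 in ph RNAi, and bsf, an RNA-binding factor of mitochondrial transcripts, 0.06 ± 0.09 and 0.67 ± 0.03, in the authors' deposited tables. Genes of the mitochondrial genome itself were not analysed here. Of 6 regulators known to act on mitochondrial or growth genes, 0 were called in the Pc mutant, and 4 were called higher and 1 lower in ph RNAi (2 higher and 3 lower relative to the ribosomal protein genes). Myc, a growth regulator, had -0.01 ± 0.12 in the Pc mutant and 1.10 ± 0.07 in ph RNAi, and srl, the fly relative of PGC-1, 0.20 ± 0.16 and 0.87 ± 0.05, in the authors' deposited tables. An unadjusted p under 0.05 in the Pc mutant was found for 1 of the 10 upkeep genes (TFAM) and 0 of the 6 regulators.

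Mitochondrial ribosomal protein genes were nearly all called in ph RNAi and nearly all uncalled in the Pc mutant. Of 72 tested, 1 was called higher and 0 lower in the Pc mutant (median 0.04), and 71 were called higher and 0 lower in ph RNAi (median 0.50). Relative to the cytoplasmic ribosomal protein genes 28 were called higher and 2 lower in ph RNAi. Among tricarboxylic acid cycle genes 1 of 15 was called higher in the Pc mutant, and 10 of 16 were called higher and 3 lower in ph RNAi (median 0.39). Relative to the ribosomal protein genes, 4 were called higher and 6 lower in ph RNAi, with a median of -0.003. The 1 in the Pc mutant was Idh3g (listed as CG5028), a subunit of isocitrate dehydrogenase, at 0.66 ± 0.06 there (adjusted p = 9.10e-26) and 0.45 ± 0.04 in ph RNAi, in the authors' deposited tables. Nc73EF, a subunit of the oxoglutarate dehydrogenase complex, had 0.23 ± 0.09 in the Pc mutant and 1.04 ± 0.03 in ph RNAi (adjusted p = 5.83e-225), in the authors' deposited tables. Of the 8 carrier and channel genes tested, 2 were called lower in the Pc mutant, and 4 were called higher and 1 lower in ph RNAi (1 higher and 4 lower relative to the ribosomal protein genes). The phosphate carrier Mpcp was called in opposite directions, with -0.31 ± 0.06 in the Pc mutant and 0.58 ± 0.02 in ph RNAi, in the authors' deposited tables.

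**Figure D3:**
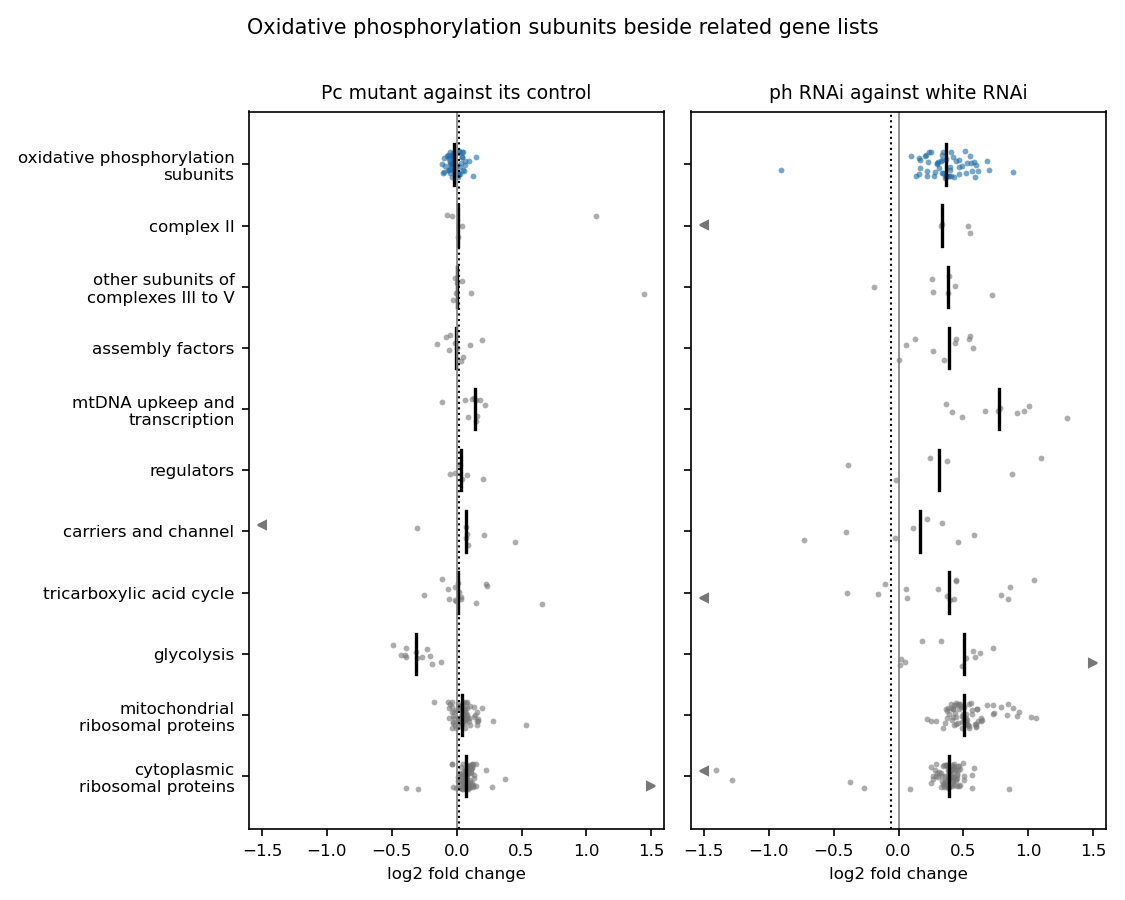
Log2 fold changes of the 56 subunits (blue) and of the genes of related lists (grey, 1 point a gene) in the Pc mutant against its control (left) and in ph RNAi against white RNAi (right), from the authors' deposited tables, with genes beyond the axis drawn as triangles at its edge. Black bars are list medians, here over all genes of the list with an adjusted p, and the dotted line is the median of all tested genes. In ph RNAi the subunit median of 0.37 stands beside 0.39 for cytoplasmic ribosomal protein genes, against which its direction turns to -0.02, 0.50 for mitochondrial ribosomal protein genes and 0.77 for genes of mitochondrial DNA upkeep.

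Binding was read from the merged peak lists as any peak sharing at least 1 bp with a gene or the 1000 bp around it, on the dm6 build and with the Release 6 annotation. A merged PSC peak was found at 24 of 56 subunits (42.9%) and a merged Su(z)12 peak at 11 (19.6%), and all 11 also had PSC. The shares over all 13922 protein-coding genes were 30.3% for PSC and 10.4% for Su(z)12. Of the 56 subunit genes 46 are at most 3000 bp long, and for all protein-coding genes of that length the shares were 19.8% and 5.86%. Among genes of that length whose mean count in the ph RNAi table reached 500, they were 37.3% and 10.2%. Of the 44 subunits of that kind, 15 (34.1%) had PSC and 5 (11.4%) had Su(z)12, close to that background. By complex, PSC was found at 12 of 33 subunits of complex I, 4 of 5 of complex III, 3 of 7 of complex IV and 5 of 11 of complex V, and Su(z)12 at 5, 2, 1 and 3. Of the 14 L paralogues 1 had PSC (ND-20L, with a fold of 1.72) and 0 had Su(z)12.

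The peaks at subunits had medians a little above those of the whole lists by the authors' fold, which is enrichment over the local background of MACS2. The 33 PSC peaks had a median fold of 2.25 (1.69 to 3.71), against 1.97 over all 5999 merged PSC peaks, and the 12 Su(z)12 peaks 2.29 (1.69 to 2.62), against 1.98 over 2205. By replicate, 17 of the PSC peaks were found in both, 13 in a single one and 3 in neither, and 6 of the Su(z)12 peaks were found in both and 6 in a single one. Over the whole lists, 43.2% of PSC and 36.7% of Su(z)12 peaks were found in both. Summits lay within 300 bp of an end of the subunit gene for 22 of 33 PSC peaks and 10 of 12 Su(z)12 peaks. The share over all peaks was not computed. Since 46 of the 56 genes are at most 3000 bp long, much of the stretch searched lies near an end. Another protein-coding gene was in reach of the same peak for 28 of the 33 PSC and 9 of the 12 Su(z)12 peaks, so most peaks cannot be given to the subunit gene alone.

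The highest PSC fold, 3.71, was at UQCR-11 (FBgn0260008, 3L, 25120709 to 25126171), in a peak from 25120477 to 25121160 with its summit 37 bp outside the gene. At the core subunit gene ND-20 (X, 15985473 to 15986808) the fold was 3.60, with a summit 77 bp outside the gene, and CG46312 and eIF5 were also in reach. At ND-AGGG (3L, 24976254 to 24977118) it was 3.55, with a summit 65 bp outside the gene and no other gene in reach. These 3 peaks were in both replicates. A fold of at least 3 was found for 3 of the 33 PSC peaks at subunits, close to the 7.78% of all merged PSC peaks. UQCR-Q (3L, 17474761 to 17476124) with a fold of 2.97 and ATPsynC (3R, 31216145 to 31219630) with 2.78 completed the highest 5. The folds of the Su(z)12 peaks there were 2.60 at UQCR-11, 2.44 at ND-20, 2.62 at ND-AGGG, 2.59 at UQCR-Q and 2.61 at ATPsynC. Those at ND-20 and ND-AGGG were found in a single replicate, and those at UQCR-11, UQCR-Q and ATPsynC in both.

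The other 6 subunits with Su(z)12 were ND-49, ND-MLRQ, ND-15, COX4, ATPsynD and ATPsynbeta. ND-15 is annotated from 114726 to 156030 on 2L, which spans many genes, so its 3 PSC peaks and 1 Su(z)12 peak belong to that stretch. Of the 11 subunits with Su(z)12, 2 lay on chromosome 4 (ATPsynbeta, ND-49) and 3 on 3L past 23 Mb (ND-MLRQ, ND-AGGG, UQCR-11), and no other subunit lies in either place. Of the remaining 51 subunits 6 had Su(z)12. Both places are dense in peaks: on chromosome 4, 85% of 80 protein-coding genes had PSC and 73.8% had Su(z)12, and on 3L past 23 Mb 66.7% of 36 had PSC and 58.3% had Su(z)12. These places were chosen after the peaks were seen.

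**Figure D4:**
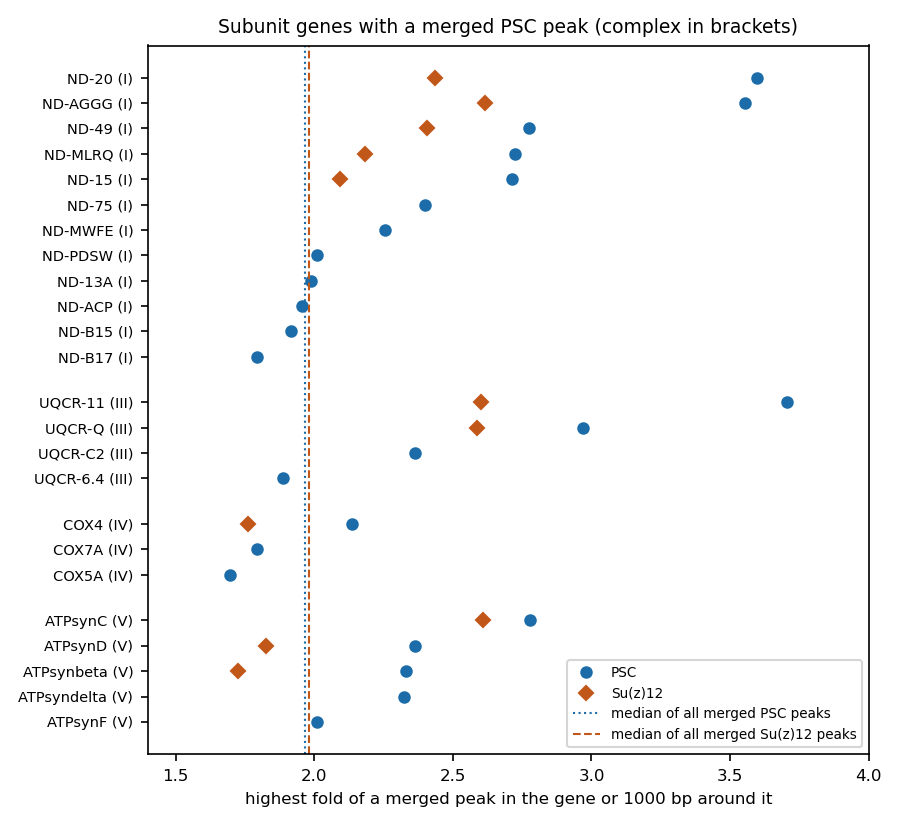
Highest fold of a merged PSC peak (circles) and Su(z)12 peak (diamonds) in each of the 24 subunit genes with PSC, or in the 1000 bp around it, by complex, with the fold as the authors' peak caller gave it. Vertical lines mark the median of all merged peaks of each list, 1.97 and 1.98. UQCR-11, ND-20 and ND-AGGG lie above a PSC fold of 3, and these genes also carry Su(z)12, at ND-20 and ND-AGGG in a single replicate.

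Subunits with and without a peak had similar medians in both conditions, and no test between them was made. In the Pc mutant the median was -0.03 for the 24 with PSC and -0.02 for the 32 without, with 0 called in either. In ph RNAi 22 of the 24 with PSC were called higher, with a median of 0.35, and 30 of the 32 without, with a median of 0.37. For Su(z)12 these were 10 of the 11 with a peak, with a median of 0.34, and 42 of the 45 without, with a median of 0.38. Relative to the cytoplasmic ribosomal protein genes all 4 of these ph RNAi medians lie below 0. ND-ACP and COX5A, with the largest increases of complexes I and IV, had PSC peaks with folds of 1.96 and 1.69 and no Su(z)12 peak. Both folds lie below the median of 2.25 at subunits. UQCR-Q, with the largest increase of complex III, had a PSC fold of 2.97 and a Su(z)12 fold of 2.59. ATPsynG, with the largest increase of complex V, had no peak of either protein.

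Gene overlap limits single values. Of the 56 subunit genes 27 overlap another protein-coding gene, and how the authors' counting treated strand is not stated. In ph RNAi 24 of these 27 were called higher, with a median of 0.34, and 28 of the 29 that overlap none were called higher on the authors' scaling. The thinly covered ND-B8 overlaps Gs1l, and ND-MWFE overlaps TppII and Nrk.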

How the data were processed

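RNA-seq and ChIP-seq were taken as deposited. Per the submitters' processing notes, the build was dm6 and the tools included STAR, HTSeq and DESeq2 1.22.1 for RNA, and Bowtie2, SAMtools and MACS2 2.1.1.20160309 for ChIP, with no settings. Per the file headers the authors' tables hold a mean normalized count (a signal over all libraries of a comparison), log2 fold changes with standard errors, the Wald score, p-values and Benjamini-Hochberg adjusted p-values. The deposited peak lists give a fold enrichment, a score and the -log10 q-value of each peak, as the authors' MACS2 wrote them, and merged lists combine both replicates per the labels. Depth per sample is unknown, so no counting interval was computed.

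A gene counted as called where the deposited adjusted p was under 0.05, and p-values of the difference between the conditions come from a z test on the authors' DESeq2 estimates. Scaling alternatives subtracted a median fold change and repeated the Wald test with the deposited standard error. Peaks were assigned to the gene and 1000 bp around it. Analyses used Python 3.11.15, pandas 2.3.3 and SciPy 1.17.1. The tests were also run on fold changes simulated with the deposited standard errors, 200 of 7614 genes being raised. Such data take the standard errors as given, so they do not check them. At a raised log2 value of 0.5 the test of the difference recovered 63% of these genes.

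Members and lists were chosen with earlier results of these data known. The text names the 10 called members with the smallest adjusted p in each comparison, every L paralogue, the 2 members per complex with the highest mean count, members with a Su(z)12 peak, the 5 highest PSC folds and up to 3 called genes per list. Members outside that rule, among them those not called and the extremes of a complex, were named after their values were seen, as were blw, the marker genes shown and the glycolysis genes. Listed symbols without a row in a table were left out of its counts.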

Additional observations from a re-analysis of the deposited data

Results flagged for a closer look

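The responses of the subunit genes differed between the 2 conditions. The log2 fold change in the Pc mutant differed from that in ph RNAi for 46 of 55 tested subunits (z test of the difference between the authors' DESeq2 estimates, adjusted p under 0.05), with the Pc mutant below ph RNAi in all 46. Of all 10588 genes tested, 49.8% differed and 22.4% had the Pc mutant below ph RNAi. The share among genes with mean counts like those of the subunits was not computed. The median difference of the subunits was -0.38, and 6 subunits differed with both comparisons centred on the cytoplasmic ribosomal protein genes. The Pc mutant had 2 replicates and a median standard error of 0.11 for the subunits, and ph RNAi had 4 replicates and a median standard error of 0.05.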

How the results depend on the processing

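No paired analysis was possible because the deposited tables hold no values per sample. For the same reason no expression replicate could be left out. The count of subunits called higher in ph RNAi was 52. It was 13 of 13 called with an absolute log2 fold change of at least 0.5, and 28 of 28 called when subunits that overlap another protein-coding gene were left out, which removes 27 of the 56. Centring on the cytoplasmic ribosomal protein genes gave 23 called subunits, 11 higher and 12 lower, with a median of -0.022, 2 called L paralogues in ph RNAi, 1 called subunit in the Pc mutant (1 lower) and 6 subunits that differed between the conditions. Under that centring ATPsynC stood at -0.023, ATPsynbeta at -0.076, COX4 at -0.045, COX7A at -0.091, ND-15 at -0.051, ND-49 at -0.16, ND-AGGG at -0.23, ND-B18 at -0.29, ND-MLRQ at -0.18, ND-MWFE at -0.23, UQCR-11 at -0.18 and UQCR-C2 at -0.11 in ph RNAi. The median of the subunits in ph RNAi was 0.43 when centred on all tested genes, and 0.28 when centred on genes whose mean count reached 500, where 1 L paralogue was called. Merged peaks found in both replicates left PSC at 12 subunits and Su(z)12 at 6. With 1 replicate left out, PSC was found at 16 to 19 subunits and Su(z)12 at 9 to 9. The cause of the shift under ribosomal centring was not tested. The counts kept their direction and stayed within 1.5 times under a stricter adjusted p (0.01), adjustment over every gene with a p-value, a mean count of at least 50, other windows around genes, summits in place of peaks and a fold of at least 2. The centring on genes whose mean count reached 500, the removal of overlapping genes and the ribosomal centring of the difference and of the related lists were chosen after seeing the data. Low counts limit the L paralogues, and 2 replicates limit the Pc mutant.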

Other observations

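Glycolysis genes, which supply the pyruvate that feeds respiration, had opposite calls in the 2 conditions. Of 12 tested, 5 were called lower and 0 higher in the Pc mutant (median log2 fold change -0.31), and 9 were called higher and 0 lower in ph RNAi (median 0.50, above the 0.39 of the cytoplasmic ribosomal protein genes). Relative to those genes, 8 were called lower in the Pc mutant, and 7 were called higher and 4 lower in ph RNAi. Gapdh2 had -0.40 ± 0.07 in the Pc mutant and 0.52 ± 0.05 in ph RNAi (SE), in the authors' deposited tables. Phosphofructokinase, encoded by Pfk, had -0.39 ± 0.07 in the Pc mutant and 0.57 ± 0.05 in ph RNAi, in the authors' deposited tables. Lactate dehydrogenase (listed as ImpL3) had -0.49 ± 0.28 in the Pc mutant, where it was not called (adjusted p = 0.358), and 3.08 ± 0.57 in ph RNAi, in the authors' deposited tables. In the Pc mutant 13 of 14 muscle markers were also called lower, and their part in these values was not tested.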
